A study of Drosophila melanogaster with 14 samples.

Results

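In the fruit fly testis, 23 protein-coding genes of 16078 measured were all but silent in bam mutants and clearly expressed in mip40/bam double mutants. They were chosen by their level in FPKM (fragments scaled by transcript length and by library depth): a mean above 0 and under 2 in bam, and at least 10 in each of the 2 mip40/bam libraries, with non-coding CR and snoRNA genes left out. The genes are Arp53D, Prosbeta2R2, CG1441, CG17324, CG9406, CG8317, CG34288, Gr63a, CG13488, y, CG9686, CG7966, GstD7, CG9150, Gld, CG12896, CG5250, CG43317, CG13084, CG7236, Vha16-5, DNaseII and BBS1. Because the bam and mip40/bam libraries chose the genes, their values there are a description and carry no test; the other 5 genotypes took no part in the choice.

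The series holds polyA RNA from whole adult testes of Drosophila melanogaster, in 7 genotypes with 2 libraries each: the double mutant mip40/bam, the single mutants bam, mip40, comr, can and CG9879, and wild type (wt). Per the labels, every library came from 50 testes of males 3 days old, kept at 23 °C. The design text calls the 2 libraries of a genotype biological replicates; the sources used here do not give alleles, genetic backgrounds or how the mutants were combined. A whole testis is a mixture, so a change in the share of cells of a type and a change of RNA per cell cannot be told apart in any value below. The mip40/bam and CG9879 tables also used another gene annotation than the other 10, so in mip40/bam against bam the annotation and the genotype cannot be told apart, although all 23 genes had the same start and end in both (97.7% of all genes did).

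Mip40 belongs to the Myb-MuvB or dREAM complex, in which Mip120, Mip130, Lin-52 and Caf1 join the DNA-binding proteins Myb, E2f2, Dp and the retinoblastoma proteins Rbf and Rbf2. In somatic fly cells this complex keeps many developmental genes silent, and Arp53D in cultured cells and the carbon dioxide receptor gene Gr63a in olfactory neurons are known examples. The testis has a related assembly, tMAC, in which Mip40 and Caf1 work with Aly, Comr, Topi and Tomb to turn on the genes of spermatocytes and spermatids. bam is the switch that ends the divisions of spermatogonia: testes without it fill with these early germ cells, while comr, can and mip40 mutants arrest later, as spermatocytes. No sequences are shown, since no genome of the files' build was used here.

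The labels were checked first. The mip40 transcript was at 25.8 and 27.4 FPKM in mip40/bam, against 59.1 and 60.4 FPKM in bam, a log2 difference of -1.14 (SE 0.07, limma adjusted p = 6.3e-06), but at 20.8 and 20.2 FPKM in the mip40 single mutant and 22.8 and 20.9 FPKM in wt (log2 difference -0.09, adjusted p = 0.315). Set against the mutants with a like arrest it was lower in the mip40 mutant, with a mean of 20.5 FPKM in mip40, 102 FPKM in comr (log2 difference -2.26, adjusted p = 1.53e-08) and 131 FPKM in can (-2.61, adjusted p = 9.99e-09). The mip40 allele is not given, so the transcript level does not speak to the protein. The early germline gene vas, an RNA helicase, was high in both bam backgrounds, at 428 and 424 FPKM in mip40/bam and 538 and 530 FPKM in bam. The spermatid genes dj, janB and Mst84Da were listed at 0 in both mip40/bam libraries. Yet 6 of the 31 genes of the spermatid list were at 1 FPKM or more in each of them. The highest, janA, was at 388 and 387 FPKM in mip40/bam and 234 and 244 FPKM in bam. The tTAF gene sa, which spermatocytes express, was at 0 and 0.09 FPKM in mip40/bam and listed at 0 in bam. Others of its list were on, with mia at 31.9 and 31.6 FPKM in mip40/bam, against 20.2 and 20.1 FPKM in bam. Taf12L was at 12.6 and 14.6 FPKM in mip40/bam, against 31.8 and 32.6 FPKM in bam. Of 6 tested genes of the list of sa, 1 was higher and 3 lower in mip40/bam. Of the 31 spermatid genes of the list, 4 were higher in mip40/bam than in bam and 0 lower by limma at an adjusted p under 0.05. These were Mst87F, at 20.1 and 18.1 FPKM in mip40/bam and 3.91 and 0.70 FPKM in bam (log2 difference 2.80, SE 0.38, adjusted p = 0.000418), Pif1A (0.92), Dic61B (0.73) and janA (0.69). Not every gene of the list was thus low in mip40/bam. But janA did not mark later stages in these libraries, with a mean of 239 FPKM in bam and 237 FPKM in wt.

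**Figure D1:**
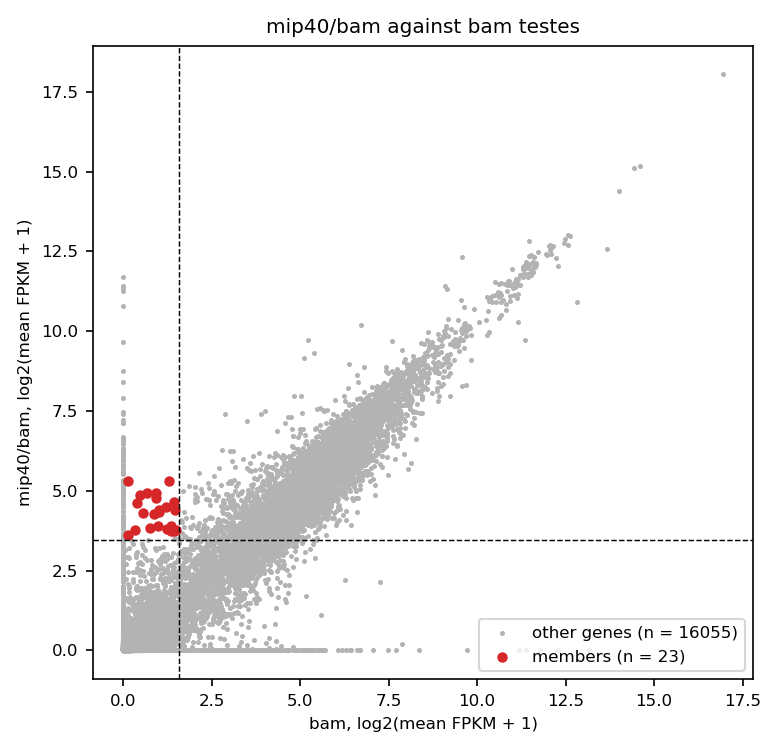
Mean level of each of 16078 genes in mip40/bam (vertical axis) against bam (horizontal axis), both as log2(mean FPKM + 1); red points are the 23 genes and dashed lines mark 10 and 2 FPKM. The red points fill the corner above 10 FPKM in mip40/bam and under 2 FPKM in bam, beside a column of grey points listed at 0 in bam.

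A group of 3 are paralogs of widely used genes, of which Arp53D and Prosbeta2R2 had the highest means of the 23 in mip40/bam. Arp53D, a testis member of the actin-related family (chromosome 2R, 16774246 to 16775676, plus strand, BDGP6), was at 37.7 and 39.6 FPKM in mip40/bam, against 0.21 FPKM and a listed 0 in bam. Prosbeta2R2, a paralog of a catalytic subunit of the proteasome, was at 39.0 and 37.3 FPKM in mip40/bam, against 1.88 and 1.0 FPKM in bam. Vha16-5, a paralog of the membrane subunit of the proton pump V-ATPase, was at 11.9 and 13 FPKM in mip40/bam, against 1.87 and 1.61 FPKM in bam. For these 3, as for all 23, each mip40/bam library lay above each bam library, which the rule had fixed.

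Others have their known roles outside the testis. Gr63a, which forms the carbon dioxide receptor of the antenna together with Gr21a (chromosome 3L, 3894999 to 3896603, minus strand), was at 23.2 and 23.9 FPKM in mip40/bam, against 0.35 and 0.26 FPKM in bam, a ratio of means of 77.5. BBS1, a subunit of the BBSome that carries cargo in cilia (chromosome 3L, 7125905 to 7128118, plus strand), was at 10.05 and 12.4 FPKM in mip40/bam, against 0.13 and 0.08 FPKM in bam. y (yellow), needed for dark pigment of the cuticle (chromosome X, 356509 to 361245, plus strand), was at 20.8 and 19.4 FPKM in mip40/bam, against 1.03 and 1.0 FPKM in bam. CG8317, whose current symbol is Lst and which encodes the peptide hormone limostatin, was at 28.3 and 24.3 FPKM in mip40/bam, against 1.15 and 0.65 FPKM in bam. The level of Gr63a did not extend to its partner: Gr21a, looked up after the values of Gr63a were seen, was at 0.18 and 0.33 FPKM in mip40/bam and 1.97 and 1.29 FPKM in bam.

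Enzymes made up a further group. CG17324 (now Ugt36F1), a UDP-glycosyltransferase that attaches sugars to small molecules, was at 30.1 and 28.7 FPKM in mip40/bam, against 0.74 and 1.06 FPKM in bam. CG1441, a predicted fatty acyl-CoA reductase, was at 27.9 and 31.2 FPKM in mip40/bam, against 0.29 and 0.92 FPKM in bam. GstD7, a glutathione S-transferase of the detoxifying delta class, was at 15.6 and 21.7 FPKM in mip40/bam, against 0.42 and 0.51 FPKM in bam. Among the related GstD genes, looked up after these values were seen, GstD5 was at 1032 and 1316 FPKM in mip40/bam, against 95.5 and 114.9 FPKM in bam, and GstD1 at 1399 and 1292 FPKM in mip40/bam, against 510 and 651 FPKM in bam, while its neighbours GstD6 and GstD8 were at 0.60 to 1.46 FPKM in mip40/bam and 0 to 0.91 FPKM in bam. These genes are similar in sequence, so reads may have been divided among them and the values are uncertain. CG9150, a short-chain dehydrogenase, was at 16.8 and 19.8 FPKM in mip40/bam, against 1.14 and 0.51 FPKM in bam. Gld, glucose dehydrogenase, was at 13.3 and 14.8 FPKM in mip40/bam, against 1.75 and 1.37 FPKM in bam, and DNaseII, an acid nuclease, at 10.4 and 14.3 FPKM in mip40/bam, against 0.99 and 2.11 FPKM in bam. CG7236, a protein kinase of the CDKL type, had the lowest ratio of means among the 23, 7.0, with 14.1 and 11.4 FPKM in mip40/bam, against 1.40 and 2.23 FPKM in bam. CG12896, a peroxiredoxin, was at 13.9 and 14.0 FPKM in mip40/bam, against 0.18 and 1.82 FPKM in bam; it lies in a cluster of similar peroxiredoxin genes that includes Prx2540-1, so its reads may have been divided among copies and its values are uncertain.

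The other 8 genes carry no function that is stated here: CG9406, CG34288, CG13488, CG9686, CG7966, CG5250, CG43317 and CG13084. CG9406 was at 25.5 and 31.2 FPKM in mip40/bam, against 0.51 and 0.29 FPKM in bam. CG13084 (chromosome 2L, 19484930 to 19486532, plus strand) was at 12.5 and 12.9 FPKM in mip40/bam, against 0.16 and 0.37 FPKM in bam. The remaining 6 ran from 11.8 FPKM, for CG43317, to 24.6 FPKM, for CG34288, in mip40/bam, and from 0.525 FPKM, for CG5250, to 2.26 FPKM, for CG34288, in bam.

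**Figure D2:**
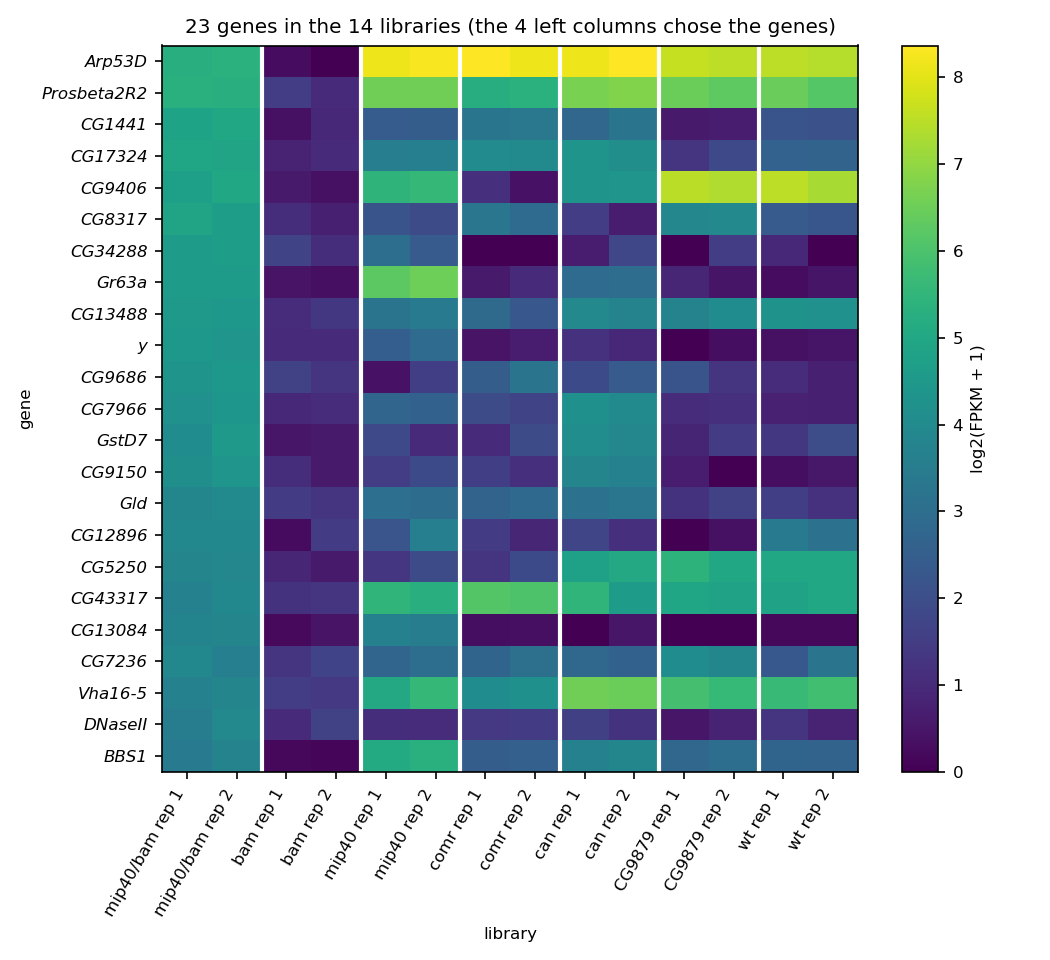
Level of each of the 23 genes (rows) in each of the 14 libraries (columns, 2 per genotype) as log2(FPKM + 1), from dark (0) to yellow (above 8). The 4 columns at the left chose the genes; to their right Arp53D is bright in every library, while CG13084 and Gr63a are bright in the mip40 libraries and dark in comr, CG9879 and wt.

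These low levels in bam rest on very few fragments. The bounds that the authors deposited with each FPKM imply 79.1 to 715 fragments per gene and library in mip40/bam (median 240), against 0 to 36.2 in bam (median 5.93). By the same bounds the mip40/bam libraries were deeper, at about 12100000 and 10980000 fragments, against 6770000 and 5870000 in bam. Gr63a, for example, had about 356 and 335 fragments in mip40/bam, against about 3 and 2 in bam. The ratio of means had a median of 19.8. In the authors' deposited table of mip40/bam against bam, 22 of the 23 genes were found, with 23 transcripts, and 22 of these transcripts had the higher value in mip40/bam; the exception was a minor transcript of CG1441 at 0 in mip40/bam and 0.15 in bam. In the authors' deposited table the transcript of Gr63a was at 20.4 FPKM in mip40/bam and 0.257 FPKM in bam, and that of Arp53D at 37.1 FPKM in mip40/bam and 0.116 FPKM in bam. Cuffdiff marked 16 of the 22 tested transcripts significant there. Those of Arp53D (Cuffdiff q = 0.257), BBS1 (0.207), CG1441, CG9406, CG13488 and y were not. The transcript of CG34288 stood at 125 FPKM in mip40/bam there, against 23.8 and 24.6 FPKM for the gene in the 2 libraries.

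The borders of the rule are soft. Just inside the bam threshold lay CG7236, CG9686 and Vha16-5, with means of 1.82, 1.79 and 1.74 FPKM in bam, and just outside it VhaM9.7-a, Prx2540-1 and CG34460 at 2.13, 2.18 and 2.22 FPKM. Just inside the mip40/bam threshold lay BBS1, DNaseII and CG7236, with lower libraries of 10.05, 10.4 and 11.4 FPKM, and just outside it CG13949, Zip42C.1 and Nha1 at 9.81, 9.81 and 9.76 FPKM. A further 75 genes were at 10 FPKM or more in both mip40/bam libraries and listed at 0 in both bam libraries. Of these, 51 were also listed at 0 in at least 1 library of another genotype, and among these are RPA3 and Taf7, which most cells use and which were at 0 in all 10 libraries of the other 5 genotypes, so a listed 0 may be a failed estimate and the rule leaves them out. The mirror rule, at least 10 FPKM in both bam libraries and a mean above 0 and under 2 in mip40/bam, was met by 5 genes. Over all 12971 genes tested, 16.4% were called higher and 19.7% lower in mip40/bam than in bam (limma, adjusted p under 0.05), a share from which nothing follows for the 23, since the same libraries chose them.

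The 23 genes were a small part of what is silent in bam. Of 3367 genes with a mean above 0 and under 2 FPKM in bam, 23 (0.683%) met the rule, and the median mip40/bam level of all 3367 was 0.12 FPKM. Of the 1005 of these genes that reached 10 FPKM in wt, 7 (0.697%) were among the 23: Arp53D, Prosbeta2R2, CG9406, CG13488, CG5250, CG43317 and Vha16-5. The median level of those 1005 genes in mip40/bam was 0.08 FPKM, so most genes that were on in wt and low in bam were low in mip40/bam as well. Of the 998 such genes that reached 10 FPKM in can, 12 (1.20%) were among the 23.

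Across the genotypes that did not choose them the 23 genes had no common pattern. A mean of at least 10 FPKM was reached by 9 of them in mip40, 5 in comr, 12 in can, 9 in CG9879 and 7 in wt, where 42.9%, 41.1%, 46.7%, 38.2% and 38.5% of all genes did. In mip40/bam itself 14 of the 23 had their highest mean of the 7 genotypes, as had 14.5% of all genes, a count that the choice of genes by a high mip40/bam level raised. Arp53D was at the other end, with 37.7 and 39.6 FPKM in mip40/bam below every library of mip40 (285 and 312), comr (329 and 287), can (285 and 326), CG9879 (196 and 185) and wt (183 and 173). All 23 genes passed the filter on low values, at least 1 FPKM in at least 2 libraries, also when the libraries of bam and mip40/bam were left aside, as did 78.3% of all genes.

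The comparison of the mip40 single mutant with wt asked whether the 23 genes also differ without mutation of bam. A total of 10 genes were higher and 4 lower in mip40 at an adjusted p under 0.05, with 9 not called, where 47.8% of all genes tested were higher and 25.4% lower. With median-of-ratios scaling 8 were higher and 11 lower. In 5 of the 23 both mip40 libraries lay below both wt libraries, as they did in 29.8% of all genes tested. The share called higher, 10 of 23, was thus near that of all genes, and the median log2 difference was 0.33, against 0.46 over all genes tested. Log2 differences here and below were taken after adding 1 to each FPKM, so those of low genes come out too small; adjusted p-values come from limma with the Benjamini-Hochberg method and a spread pooled over all 7 genotypes. Within the 23, 5 genes had a log2 difference above 2: Gr63a, CG13084, BBS1, y and CG34288. They were singled out by these values, and the share of all genes above 2 was not counted. The number 5 therefore says nothing about the 23 as a set.

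Gr63a was at 75.3 and 90.1 FPKM in mip40, against 0.21 and 0.40 FPKM in wt, and also low in comr (0.54 and 0.98), CG9879 (0.87 and 0.38) and, less so, can (6.52 and 6.99). The mip40 libraries stood above all others, mip40/bam included. The log2 difference from wt was 6.0 (SE 0.19, adjusted p = 7.43e-09). CG13084 was at 11.9 and 10.5 FPKM in mip40, against 0.14 and 0.13 FPKM in wt, and was at most 0.423 FPKM in comr, can or CG9879. Its level was thus near that in mip40/bam and low in every other genotype, with a log2 difference from wt of 3.43 (SE 0.17, adjusted p = 1.30e-07). BBS1 was at 33.9 and 39.0 FPKM in mip40, against 5.53 and 5.37 FPKM in wt, with 4.49 and 4.87 in comr, 11.9 and 13.3 in can and 5.80 and 7.19 in CG9879. Its order was mip40, can, CG9879, wt and comr, and the log2 difference from wt was 2.53 (SE 0.14, adjusted p = 2.02e-07).

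y was at 4.66 and 6.52 FPKM in mip40, against 0.29 and 0.40 FPKM in wt, with 0.36 and 0.55 in comr and 1.28 and 0.91 in can. Its libraries did not overlap between mip40 and any of the other 4 genotypes (log2 difference from wt 2.28, SE 0.18, adjusted p = 2.33e-06), yet its level in mip40 was below the 20.8 and 19.4 FPKM of mip40/bam. CG34288 was at 7.12 and 4.23 FPKM in mip40, against 0.92 FPKM and a listed 0 in wt, and was listed at 0 in both comr libraries. By the deposited bounds it rested on about 8 and 5 fragments in mip40, against 1 and 0 in wt. A listed 0 may be a failed estimate, so its difference from comr is uncertain. At this level it varied more than the others (log2 difference from wt 2.23, SE 0.55, adjusted p = 0.00486). Gr21a, the partner of Gr63a, had a log2 difference of 0.25 between mip40 and wt (SE 0.32, adjusted p = 0.507), with an average of 0.47 FPKM in mip40 and 0.19 FPKM in wt.

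**Figure D3:**
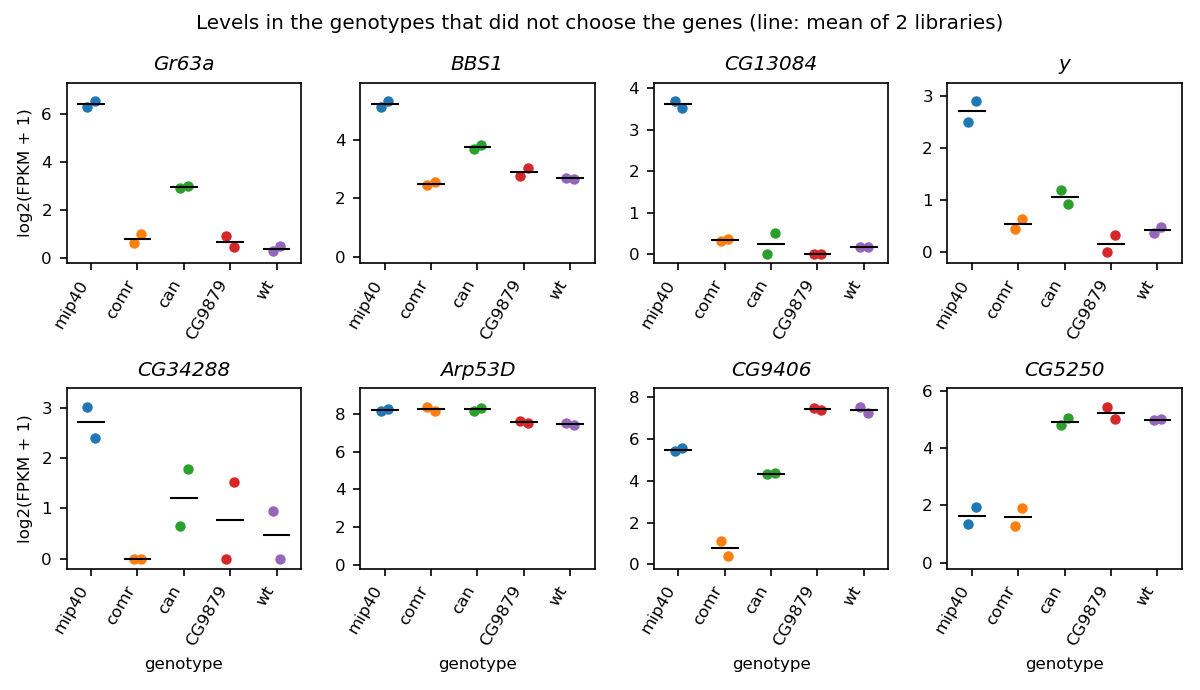
Level of 8 of the 23 genes as log2(FPKM + 1) in the mip40, comr, can, CG9879 and wt libraries; points are libraries and lines the mean of 2. In the panels of Gr63a, BBS1, CG13084, y and CG34288 the mip40 points are the highest, in that of Arp53D all points lie between 7 and 9, and in those of CG9406 and CG5250 the comr points are at or near the bottom.

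The other 5 genes higher in mip40 than in wt moved less. CG7966 was at 5.57 and 5.07 FPKM in mip40, against 0.70 and 0.65 FPKM in wt (log2 difference 1.92, SE 0.13, adjusted p = 8.44e-07), and Gld at 7.25 and 6.82 FPKM in mip40, against 1.96 and 1.28 FPKM in wt (1.63, SE 0.19, adjusted p = 2.94e-05). CG9150 was higher by 1.27, CG17324 by 0.96 and Arp53D by 0.74 on the log2 scale. The 4 that fell were CG5250, at 1.53 and 2.86 FPKM in mip40 and 30.5 and 31.0 FPKM in wt (log2 difference -3.34, SE 0.26, adjusted p = 1.79e-06), CG9406, at 42.1 and 46.3 FPKM in mip40 and 184 and 154 FPKM in wt (-1.90, SE 0.22, adjusted p = 3.11e-05), CG13488 (-0.95, adjusted p = 0.00221) and Vha16-5 (-0.43, adjusted p = 0.0455). The call of Vha16-5 was lost when mip40 replicate 1 was left out (-0.17, adjusted p = 0.359), wt replicate 1 (-0.53) or wt replicate 2 (-0.32). Scaling by median of ratios lowered the median difference of all genes between mip40 and wt by 0.99; Arp53D then turned to -0.36 and CG17324 to -0.02, while Gr63a stayed at 5.48, CG13084 at 3.04, y and CG34288 at 1.78 and BBS1 at 1.54.

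Against comr, a mutant of another tMAC subunit, the arrest is at a like stage and the scaling matters less. Of the 23 genes, 11 were higher and 4 lower in mip40 than in comr, where 22.6% and 23% of all genes tested were; the median log2 difference was 0.35, against -0.01 over all genes. Gr63a was higher by 5.58 (SE 0.19, adjusted p = 1.92e-08), CG13084 by 3.27, BBS1 by 2.72, CG34288 by 2.70 and y by 2.17. CG9406 was at 42.1 and 46.3 FPKM in mip40, against 1.21 and 0.31 FPKM in comr, a log2 difference of 4.73 (SE 0.22, adjusted p = 1.74e-07). CG12896 was higher by 1.72, Prosbeta2R2 by 1.27, Vha16-5 by 1.19, CG7966 by 0.83 and CG13488 by 0.75. The 4 lower genes were CG9686 (-1.85), CG8317 (-1.04), CG1441 (-0.85) and CG43317 (-0.70), and leaving out any 1 library of mip40 or comr brought this number to 2. The calls of CG12896 and CG13488 were lost without comr replicate 2 or mip40 replicate 2 (1.43 and 1.02 for CG12896, 0.44 and 0.64 for CG13488).

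Against can, which lacks a testis TAF, 8 genes were higher and 6 lower in mip40, where 19.2% and 32.4% of all genes tested were, and the median was -0.18, against -0.16 over all genes. Gr63a led again with 75.3 and 90.1 FPKM in mip40 and 6.52 and 6.99 FPKM in can (log2 difference 3.43, SE 0.19, adjusted p = 7.1e-07), followed by CG13084 (3.35, adjusted p = 5.37e-07), y (1.65), CG34288 (1.5), BBS1 (1.46), CG12896 (1.46), CG9406 (1.15) and CG8317 (0.98). The 6 lower genes were CG5250 (-3.28), GstD7 (-2.55), CG9150 (-2.05), CG7966 (-1.43), Vha16-5 (-1.21) and CG17324 (-0.63). GstD7 was at 2.60 and 1.05 FPKM in mip40 and 16.1 and 13.8 FPKM in can, and CG9150 at 1.88 and 2.66 FPKM in mip40 and 13.1 and 11.9 FPKM in can. The call of CG34288 (adjusted p = 0.0483) was lost with mip40 replicate 1 or 2 or can replicate 1 left out (1.18, 1.81 and 0.93), that of CG12896 without mip40 replicate 2 or either can replicate (0.76, 1.74 and 1.17), that of CG8317 without mip40 replicate 1 or can replicate 2 (0.86 and 0.53), and that of CG17324 without mip40 replicate 1 or can replicate 1 (-0.61 and -0.545). The 3 comparisons share the mip40 libraries, so they do not support one another.

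**Figure D4:**
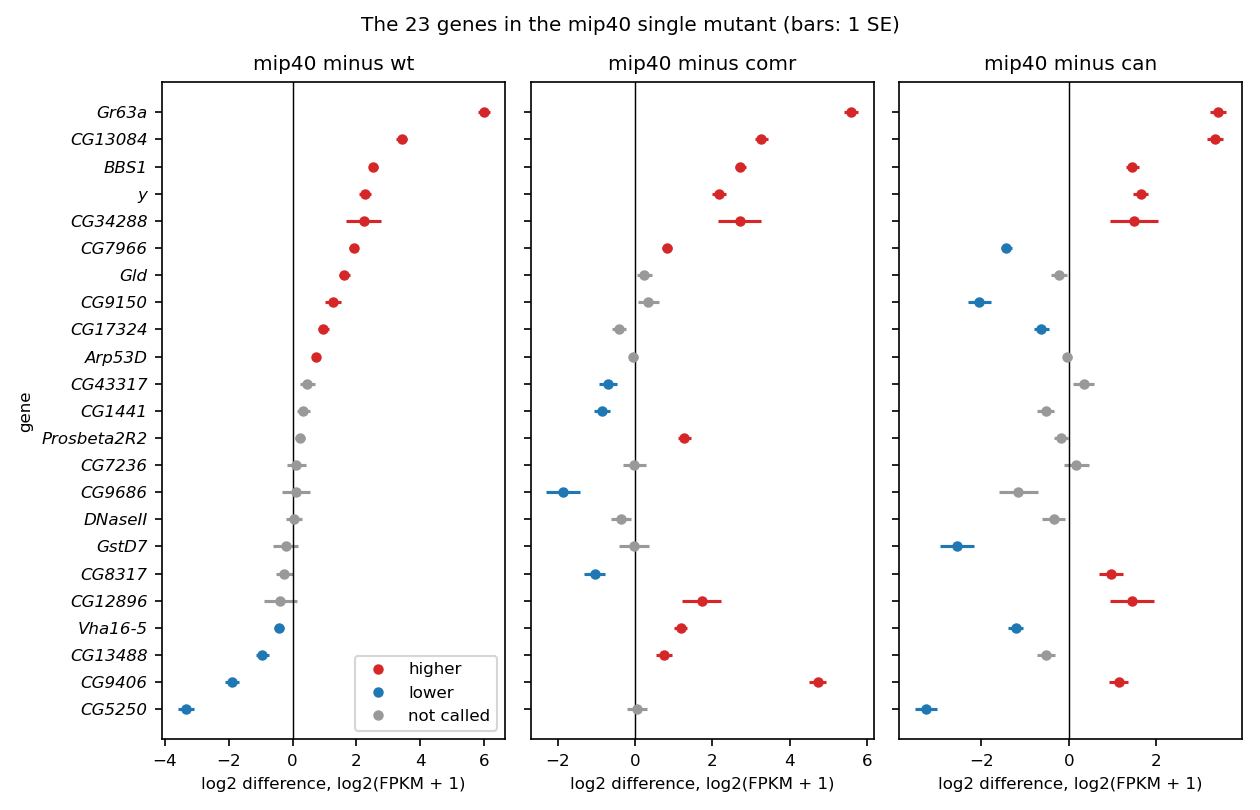
Log2 difference, on the log2(FPKM + 1) scale, of the mip40 single mutant from wt, comr and can for each of the 23 genes, ordered by the difference from wt; bars are 1 SE, red marks genes called higher and blue genes called lower at a limma adjusted p under 0.05. Gr63a, CG13084, BBS1, y and CG34288 are red in all 3 panels, and CG5250 is blue against wt and can.

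The comr and can mutants gave their own values beside these, with the same wt libraries. In comr 9 of the 23 were higher and 6 lower than in wt, where 48.5% and 27.9% of all genes tested were; in can 13 were higher and 3 lower, where 51% and 20.4% were. Medians were 0.16 for comr, against 0.59 over all genes, and 0.73 for can, against 0.62. CG9406 was at 1.21 and 0.31 FPKM in comr, against 184 and 154 FPKM in wt (log2 difference -6.63, SE 0.22, adjusted p = 4.21e-09), and CG5250 at 1.44 and 2.71 FPKM in comr, against 30.5 and 31.0 FPKM in wt (-3.40, SE 0.26, adjusted p = 1.2e-06). Neither gene was as low in mip40/bam, at 25.5 and 31.2 FPKM for CG9406 and 13 and 13.6 FPKM for CG5250, levels that the rule had set. In can the largest increases were those of CG7966, at 17.4 and 14.7 FPKM in can and 0.70 and 0.65 FPKM in wt (3.34, SE 0.13, adjusted p = 4.5e-08), CG9150 (3.32, adjusted p = 2.53e-06), Gr63a (2.57, adjusted p = 1.45e-06) and GstD7 (2.33, adjusted p = 0.000429), and the largest decrease was that of CG9406 (-3.05, SE 0.22, adjusted p = 1.4e-06).

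Between comr and wt, scaling by median of ratios moved the median of all genes by -1.06, and between can and wt by -1.08; the 23 genes then counted 2 higher and 10 lower in comr, and 6 higher and 9 lower in can. Arp53D turned from higher to lower in both (-0.45 in comr and -0.40 in can). So did CG8317 (-0.26) and CG43317 (-0.04) in comr, and Prosbeta2R2 (-0.75), CG1441 (-0.11) and Vha16-5 (-0.38) in can.

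The CG9879 libraries share their annotation with those of mip40/bam, so CG9879 against wt carries the same annotation difference in other testes. The genotype differs as well, so annotation and genotype cannot be told apart here either. Of the 23 genes, 2 were higher and 3 lower in CG9879 than in wt, where 4.26% and 7.24% of all genes tested were. CG8317 was higher, at 13.6 and 14.5 FPKM in CG9879 and 4.25 and 3.68 FPKM in wt (1.60, adjusted p = 0.00607), and so was CG7236 (1.20, adjusted p = 0.0321), whose call was lost without CG9879 replicate 1 (1.07), CG9879 replicate 2 (1.32) or wt replicate 1 (0.74). CG12896 (-3.11), CG1441 (-1.50) and CG17324 (-1.08) were lower. Gr63a, CG13084, BBS1, y and CG34288 did not pass the test here, with log2 differences of 0.30, -0.18, 0.21, -0.26 and 0.29.

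The subunits of the complexes changed unevenly between mip40/bam and bam. Of 12 measured genes of the Myb-MuvB list, 3 rose (Rbf, E2f2 and mip130) and 4 fell (mip40, Dp, Myb and l(3)mbt), with a median log2 difference of 0.24. mip130 was at 34.7 and 34.3 FPKM in mip40/bam, against 21.5 and 23.2 FPKM in bam (0.61, SE 0.17, adjusted p = 0.0221), and Rbf at 54.3 and 55.8 FPKM in mip40/bam, against 37.2 and 38.2 FPKM in bam (0.54, SE 0.08, adjusted p = 0.000694). Of 9 measured tMAC genes, 2 rose (topi and vis) and 3 fell (mip40, achi and aly). topi, a zinc finger subunit, was at 13 and 13.2 FPKM in mip40/bam, against 5.31 and 5.78 FPKM in bam (1.10, SE 0.07, adjusted p = 7.3e-06). comr and tomb were listed at 0 in all 4 libraries. But tomb was also listed at 0 in every wt and CG9879 library, with means of 41.0 FPKM in mip40, 68.0 in comr and 69.6 in can. Its listed 0 may thus be a failed estimate.

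Markers of other cells moved between mip40/bam and bam as well, and their part in the 23 genes was not tested; none of the 23 stands in a marker list. Of 18 tested fat body and haemolymph genes 7 were higher and 2 lower in mip40/bam, and the summed level of the list was 6463 and 5781 FPKM in mip40/bam, against 862 and 918 FPKM in bam. Most of this was Obp44a, an odorant-binding protein, at 5422 and 4848 FPKM in mip40/bam, against 743 and 791 FPKM in bam. Immune genes had 11 of 34 higher and 1 lower, with sums of 5471 and 6013 FPKM in mip40/bam and 1372 and 1409 FPKM in bam. Muscle genes had 14 of 25 higher and 2 lower, with sums of 943 and 856 FPKM in mip40/bam and 463 and 557 FPKM in bam. Early germline genes had 1 of 16 higher and 8 lower, with sums of 1661 and 1765 FPKM in mip40/bam and 2446 and 2316 FPKM in bam, and hub and cyst genes 1 of 15 higher and 7 lower, with sums of 137 and 133 FPKM in mip40/bam and 210 and 227 FPKM in bam. The spermatid list, with 4 of 31 higher and 0 lower, summed to 529 and 532 FPKM in mip40/bam and 366 and 365 FPKM in bam. But the summed FPKM of all genes was itself higher in mip40/bam than in bam. As a share of it the spermatid list differed little, at 0.0423% and 0.0431% in mip40/bam and 0.0403% and 0.0386% in bam. The shares of the fat body, immune and muscle lists stayed higher in mip40/bam. Those of the early germline and the hub and cyst lists stayed lower. Most of the spermatid sum was janA, at 388 and 387 FPKM in mip40/bam and 234 and 244 FPKM in bam. Next came dhd, at 88.8 and 89.4 FPKM in mip40/bam and 87.5 and 95.2 FPKM in bam. Neither gene was lower in bam than in wt. Means were 239 FPKM in bam and 237 FPKM in wt for janA, and 91.3 and 8.46 FPKM for dhd. In mip40/bam 6 and 6 of the 31 genes were at 1 FPKM or more, and in bam 16 and 4. Accessory gland transcripts reached 1.89% of the summed FPKM in comr replicate 2 and 0.386% to 0.678% in can replicate 1, CG9879 replicate 2 and wt replicate 1, and at most 0.0509% elsewhere. Without these 4 libraries, mip40 was still higher than wt in Gr63a, CG13084, BBS1, y and CG34288.

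The 23 genes were spread over the genome: 8 lay on chromosome arm 3R, 6 on 2R, 5 on 2L, 2 on 3L and 2 on X, where 23.7%, 20.5%, 19.8%, 19.7% and 15.5% of all genes lie. They were compact, with a median exon length of 1319 bases, against 1746 for all protein-coding genes, and 18 of the 23 (78.3%) had a single annotated transcript, against 48.8%. BBS1 shares exon sequence with Acbp4 in the annotation, so its reads may include some of that gene.

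Many of them sat back to back with an active gene. In 11 of the 23 (47.8%) the next protein-coding gene upstream ran in the opposite direction with at most 500 bases between the gene bodies, and in 10 of these that upstream gene was at 10 FPKM or more in bam. The same arrangement held for 23.5% of all 13267 protein-coding genes, and for 6.62% of the 3306 that were, like the 23, above 0 and under 2 FPKM in bam; with the upstream gene at 10 FPKM or more the shares were 43.5% of the 23, 17.8% and 2.72%. With up to 1000 bases, and whatever the level of the upstream gene, the shares were 56.5%, 31.1% and 12.4%. This arrangement was counted after the flanking genes had been looked at, and its part in the levels was not tested.

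The upstream genes showed what lay on the other side of the gap. CG14977, 296 bases from Gr63a, was at 92.5 and 93.9 FPKM in mip40/bam, against 50.5 and 52.5 FPKM in bam. msl-3, a dosage compensation gene 371 bases from BBS1, was at 38.9 and 39.0 FPKM in mip40/bam, against 38.4 and 38.8 FPKM in bam. CG10195, 224 bases from CG13084, was at 33.1 and 31.8 FPKM in mip40/bam, against 25.4 and 31.1 FPKM in bam, and Sod2, the mitochondrial superoxide dismutase 330 bases from Arp53D, was at 210.0 and 209 FPKM in mip40/bam, against 127 and 130 FPKM in bam. These neighbours were expressed in bam while the gene beside them was not, and differed less than 2-fold between the genotypes. They are a part of the close upstream genes, and not all of those kept their level. CG12299, 301 bases from Vha16-5, was at 21.8 and 21.4 FPKM in mip40/bam, against 44.8 and 41.9 FPKM in bam.

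Counting both sides, the 23 genes had 46 flanking protein-coding genes, 1 of which, CR43405, has a non-coding symbol in the files and is protein coding in the annotation used here. Of the 46, 25 were at 10 FPKM or more in bam, as were 39.2% of all genes. Of these 25, 19 had a mean FPKM in mip40/bam within 2-fold of that in bam. The share of all genes within 2-fold was not counted. The median log2 ratio of the 46, taken after adding 1 to each mean FPKM, was 0.01. On that scale 2 of the 46 (4.35%) were at least 4-fold higher in mip40/bam, as were 1.90% of all protein-coding genes: Prx2540-1, beside CG12896, at 15.2 and 15.4 FPKM in mip40/bam and 2.78 and 1.59 FPKM in bam, and CG11703, 36 bases from CG5250, at 9.87 and 6.71 FPKM in mip40/bam and 0.96 and 0.77 FPKM in bam. The other 2 that moved as far were lower: CG43182, beside y, at 1.06 and 3.77 FPKM in mip40/bam and 22.6 and 11.5 FPKM in bam, and CG34376, beside CG34288, listed at 0 in mip40/bam and at 13.3 and 13.8 FPKM in bam.

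**Figure D5:**
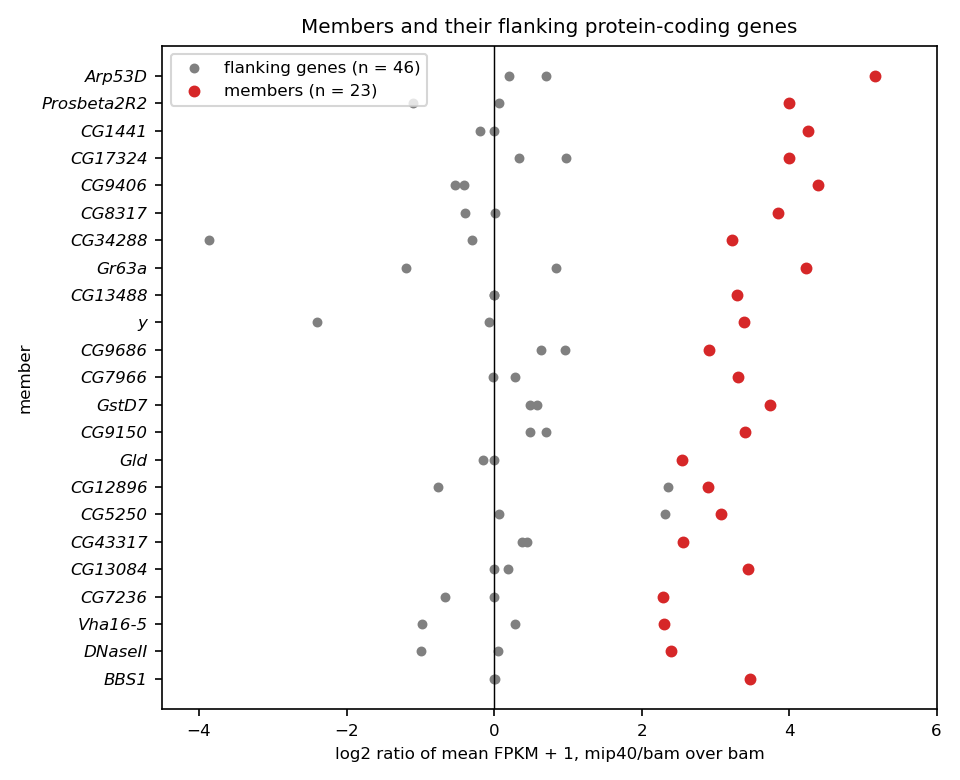
Log2 ratio of mean FPKM + 1, mip40/bam over bam, for the 23 genes (red) and the nearest protein-coding gene on each side (grey, 46 in all), 1 row per gene. The red points lie above 2, on the side where the rule placed them, while most grey points lie between -1 and 1, and 2 grey points, beside CG12896 and CG5250, lie above 2.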

How the data were processed

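Testes of 7 genotypes were sequenced as TruSeq libraries of polyA RNA on a MiSeq, per the labels. TopHat, Cufflinks and Cuffdiff and the builds dm3 and dm6 are named in the submitters' processing notes; the sources used here give neither versions nor strand settings. For each library the authors deposited FPKM per gene with lower and upper bounds, and a Cuffdiff table of mip40/bam against bam, made on BDGP5 per the labels, with p-values and q-values. Tables were joined by unique symbol at overlapping positions (16078 genes). The bounds imply about 3540000 to 12100000 fragments per library, as an estimate: fragments were taken as (2F/(upper bound - F)) squared, with F the FPKM. Annotation and neighbours came from BDGP6 release 6.54.

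Genes with at least 1 FPKM in at least 2 libraries (12971) were tested on log2(FPKM + 1) by limma 3.58.1 in R 4.3.3, with an intensity trend, over all 14 libraries (7 residual degrees of freedom, prior 1.82), two-sided, with Benjamini-Hochberg adjustment. With 2 libraries a genotype, p-values rest on the pooled spread. The script was tested on simulated data. Python 3.11.15, numpy 2.4.6, pandas 2.3.3 and matplotlib 3.10.9 made tables and plots. All 23 genes are named, by a rule that names all up to 30. The members and gene lists were chosen with earlier results of these data known. Alternatives were the pseudocount, filter, scaling, groups fitted, replicate block, annotation, accessory gland libraries, single libraries and thresholds. Promoter motifs were not searched.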

Additional observations from a re-analysis of the deposited data

Results flagged for a closer look

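In 5 of the 23 genes both mip40 libraries lay below both wt libraries, as in 29.8% of all genes tested, whereas both mip40/bam libraries lay above both bam libraries, a direction that the choice of genes had fixed. The log2 difference of mip40 from wt was -3.34 for CG5250, -1.9 for CG9406, -0.95 for CG13488, -0.43 for Vha16-5 and -0.26 for CG8317, of which that of CG8317 did not pass the test (limma adjusted p = 0.435). The difference between the 2 effects was not tested, since the rule used one of them.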

How the results depend on the processing

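The number of genes that meet the rule was 6 with thresholds of 1 FPKM in bam and 20 in mip40/bam, 162 with 4 and 5 (all 23 among them), 98 with a bam mean of 0 allowed, and 23 after median-of-ratios scaling, of which 18 were shared. With median-of-ratios scaling, mip40 against wt had 11 lower (4 as reported), comr against wt 2 higher and 10 lower (9 and 6), and can against wt 6 higher and 9 lower (13 and 3). The share of higher calls over all genes was 38% with it and 65.3% without for mip40 against wt, 60.1% and 49.6% for mip40 against comr, 38.6% and 63.5% for comr against wt and 37.4% and 71.4% for can against wt. With it Arp53D reversed to -0.36 in mip40, -0.45 in comr and -0.40 in can, CG17324 to -0.0219 in mip40, CG8317 to -0.26 and CG43317 to -0.0407 in comr, and Prosbeta2R2 to -0.75, CG1441 to -0.11 and Vha16-5 to -0.38 in can, all against wt. Quantile normalization gave 8 higher and 5 lower for can against wt; the share of higher calls over all genes was then 57.2% for mip40 against can (37.2% without it) and 58.5% for can against wt. A pseudocount of 0.1 gave 2 lower for mip40 against comr (4) and 5 higher for mip40 against can (8), as did a fit over those 2 genotypes alone. CG9879 against wt had 1 higher (2) without the filter, in a fit over 2 genotypes and with the 4 accessory gland libraries left out, which also gave 1 lower (3); leaving out 1 library gave 1 to 2 higher. Without those libraries mip40 against comr had 2 lower, as with any 1 library left out (2 to 2). Leaving out 1 library gave 10 to 10 higher and 3 to 4 lower for mip40 against wt. The cause of these shifts was not tested. Of the 14 calls of mip40 against wt, 11 kept their direction and side of the threshold under every alternative, as did 8 of 15 against comr and 9 of 14 against can, 6 of 15 for comr against wt, 8 of 16 for can and 1 of 5 for CG9879. With the replicate block the counts were 10 higher and 3 lower for mip40 against wt, 11 and 4 against comr and 7 and 7 against can. Against wt they were 9 and 6 for comr, 13 and 3 for can and 2 and 3 for CG9879. Deviations of same-numbered libraries correlated at -0.41 (comr and wt) to 0.371 (can and wt). The labels give only a replicate number, and these correlations do not settle whether same-numbered libraries share anything else. Depth limits the bam values, of which the median rests on 5.93 fragments.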
